A study of Mus musculus with 12 samples.

Results

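Pparg, Rxra, Srd5a1, Mc5r and Prdm1 are regulators and hormone-response genes of the sebaceous lineage, the cell lineage that forms the meibomian glands of the eyelid. They were taken by gene symbol and are 5 of the 21936 genes in the expression table. All 5 passed the filter on low values.

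RNA was sequenced from eyelid tissue of male C57BL/6 mice, purchased at 6 to 8 weeks of age and kept in a cycle of 12 hours of light and 12 hours of dark. The HF mice ate a high-fat diet (60 kcal% fat) and the CTL mice a standard diet (10 kcal% fat), and each diet was sampled at 9h, 15h and 21h, which gave 12 libraries in 6 groups of 2. The duration of the diet is 3 months in the sample labels and 4 months in the series text, and the tissue is labelled meibomian gland although the series text describes removal of whole upper and lower eyelids. It is not stated if libraries were made from single mice or pooled mice, or that libraries of a group came from separate mice, so p-values speak only to the spread among these libraries.

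A meibomian gland is a modified sebaceous gland whose cells, the meibocytes, mature, fill with lipid and burst to release it onto the tear film. PPARG, a nuclear receptor activated by fatty acid derivatives, drives the lipid programme of sebocytes and binds DNA as a heterodimer with a retinoid X receptor such as RXRA. SRD5A1 converts testosterone to the stronger androgen dihydrotestosterone, MC5R is a melanocortin receptor needed for normal sebum output in mice, and PRDM1 (BLIMP1) is a transcriptional repressor that promotes terminal differentiation of plasma cells and several epithelia.

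Read numbers here are estimates recovered from the deposited values. By these, libraries held 14096362 to 17889159 reads, and the 5 genes had between 188 reads (Mc5r) and 4337 reads (Rxra) in a library. Genes of the meibocyte were abundant in every library. The summed level of 26 meibocyte and sebocyte genes was 8916 to 13670 FPKM in HF libraries and 8333 to 11690 FPKM in CTL libraries, FPKM being reads scaled to exon length and sequencing depth. Other tissue was present too: 12 skeletal muscle markers summed to 2548 to 6936 FPKM in HF libraries and to 2908 to 6672 FPKM in CTL libraries, and none of the 12 was at 0 in all libraries. In such bulk tissue, fewer cells of a type and less RNA per cell cannot be told apart.

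Per length of transcript, Rxra and Srd5a1 had the highest levels of the 5 genes and Mc5r the lowest. Mean levels over the 12 libraries were 32.3 FPKM for Rxra, 31.4 FPKM for Srd5a1, 26.0 FPKM for Pparg, 9.38 FPKM for Prdm1 and 4.20 FPKM for Mc5r, where the median of the 13228 genes tested was 6.82 FPKM. Rxra was above Srd5a1 in 6 of the 12 libraries, every 9h library among them, so the order of these neighbours was not fixed. Rxra and Srd5a1 averaged 39.5 and 29.0 FPKM at 9h, 30.5 and 32.8 FPKM at 15h, and 26.8 and 32.3 FPKM at 21h. Srd5a1 was above Pparg in 12 of 12 libraries although their ranges overlapped, and the ranges of Pparg and Prdm1, and of Prdm1 and Mc5r, did not overlap. The spread between the libraries of a group, on the log2(FPKM + 1) scale, was an SD of 0.16 for Srd5a1, the smallest, and 0.22 for Mc5r, the largest.

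**Figure D1:**
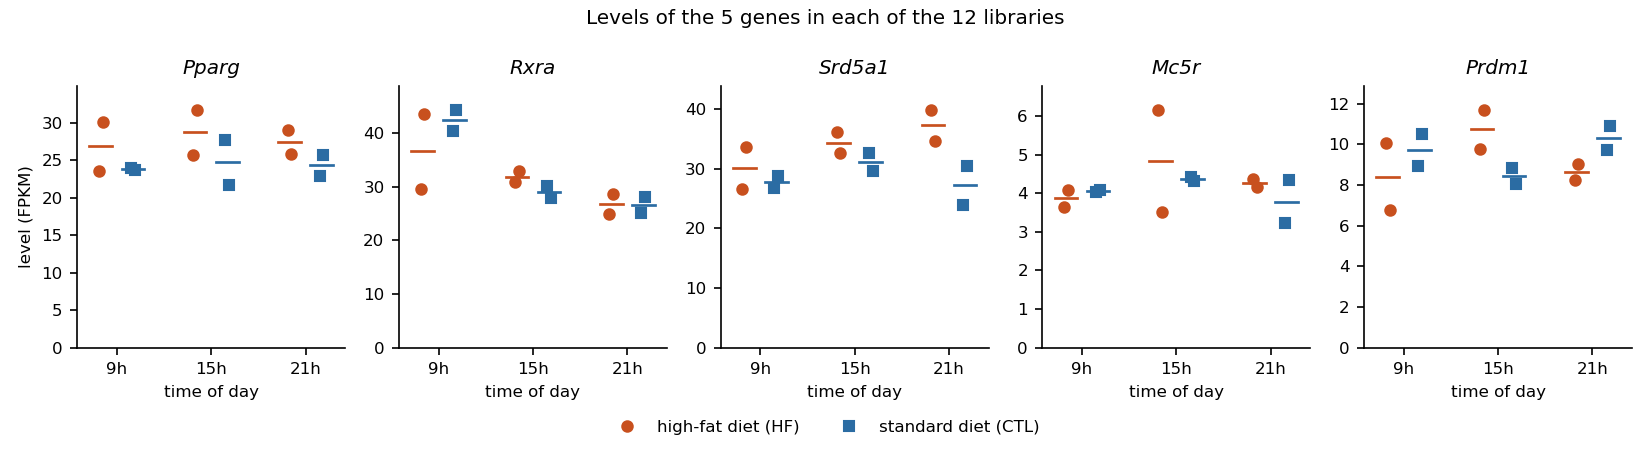
Level in FPKM (vertical axis, from 0) of each gene by time of day (horizontal axis); each point is 1 library, circles are HF and squares CTL, and the short line is the mean of 2 libraries. Rxra is highest at 9h except in 1 HF library at 29.5 FPKM, and the Srd5a1 points of HF and CTL are farthest apart at 21h.

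The fit of all genes was limma on log2(FPKM + 1) with 1 mean per diet and time, with Benjamini-Hochberg adjustment over the 13228 genes. A gene was called at an adjusted p under 0.05. None of the 5 genes was called for diet averaged over the 3 times, where 1.98% of all genes were called (262 genes). One, Rxra, was called between 21h and 9h.

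Rxra encodes the retinoid X receptor alpha, a partner of PPARG and of several other nuclear receptors (ENSMUSG00000015846, GRCm38 chromosome 2, 27676440 to 27762957, plus strand). RefSeq gives it 2 starts on GRCm38.p6, and the 250 bases before each are shown because the gene was called between 21h and 9h. Capitals mark matches to GGGCGG (GC box) or AGGTCA (the half-site of nuclear receptors), on either strand.
Rxra upstream start, chr2:27676951-27677200, plus strand: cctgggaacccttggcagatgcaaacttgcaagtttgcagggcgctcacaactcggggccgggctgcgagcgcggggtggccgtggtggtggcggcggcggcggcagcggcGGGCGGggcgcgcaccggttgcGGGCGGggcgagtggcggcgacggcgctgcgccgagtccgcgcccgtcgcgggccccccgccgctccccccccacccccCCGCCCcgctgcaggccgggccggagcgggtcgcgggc
Rxra downstream start, chr2:27709042-27709291, plus strand: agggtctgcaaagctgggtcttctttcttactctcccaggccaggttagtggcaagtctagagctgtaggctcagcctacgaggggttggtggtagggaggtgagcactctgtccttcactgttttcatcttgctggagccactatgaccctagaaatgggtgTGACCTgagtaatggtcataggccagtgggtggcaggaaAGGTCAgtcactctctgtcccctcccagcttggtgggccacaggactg
The upstream window had 81.2% G and C, 40 CpG dinucleotides and 3 GGGCGG matches, beginning 139, 117 and 38 bases before the start. The downstream window had 55.2% G and C, 1 CpG and 2 AGGTCA matches, beginning 87 and 48 bases before the start. Over 32851 RefSeq promoter windows of the same length, 32.7% held GGGCGG and 14.0% held AGGTCA. Neither window held CACGTG, which 6.02% of windows held, nor AGGTCANAGGTCA, which 0.0335% held, and matches of 1 motif did not overlap those of another. FPKM values are per gene and do not show which start was used.

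Rxra was lower at 21h than at 9h. At 9h it measured 29.5 and 43.7 FPKM in HF libraries and 40.5 and 44.4 FPKM in CTL libraries. At 15h it measured 30.9 and 32.9 FPKM in HF and 30.1 and 28.0 FPKM in CTL, and at 21h 25.0 and 28.8 FPKM in HF and 25.2 and 28.1 FPKM in CTL. All 4 libraries at 21h were below all 4 at 9h, a pattern that 7.87% of the tested genes showed. The HF library numbered 6 at 9h, at 29.5 FPKM, was the 1 library of that time within the range of the 15h libraries.

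Over both diets, the means were 26.8 ± 1.95 FPKM at 21h and 39.5 ± 6.88 FPKM at 9h (SD, n = 4 each). The difference of 21h minus 9h was -0.53 ± 0.12 on the log2(FPKM + 1) scale (SE, 95% interval -0.79 to -0.27), with an adjusted p of 0.0362 in limma. Between these times 6.02% of all genes were called, 3.43% lower at 21h. The call depended on the libraries used: it held in 3 of 12 fits that left out 1 library each, whose adjusted p ran from 0.00256 to 0.134 and whose differences ran from -0.67 to -0.39. The 3 were those without HF number 6 at 9h, HF number 2 at 15h or HF number 6 at 15h, and leaving out any other library ended the call. With a replicate block on the number in each label the difference was -0.32 and the adjusted p was 0.230, and without the filter on low values the adjusted p was 0.0552.

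Each step between neighbouring times was also tested. The difference of 15h minus 9h was -0.35 ± 0.12 (SE, adjusted p = 0.131 in limma), and that of 21h minus 15h was -0.18 ± 0.12 (adjusted p = 1.00 in limma). Only 0.0227% of all genes were called for 15h minus 9h and 0 for 21h minus 15h, where 588 had an unadjusted p under 0.05. The F test of time over both diets gave Rxra an adjusted p of 0.0825 in limma, where 1.46% of genes were called. Without the HF library numbered 6 at 9h, both the F test and the 15h difference passed, with adjusted p of 0.00552 and 0.00762 in limma and a 15h difference of -0.49.

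Within the diets, 21h minus 9h was -0.41 ± 0.16 in HF libraries (SE, adjusted p = 0.464 in limma) and -0.65 ± 0.16 in CTL libraries (adjusted p = 0.106 in limma, with 0.0378% of genes called). The F test of time gave 0.657 as adjusted p in HF, where 0 genes were called and 1155 had an unadjusted p under 0.05, and 0.176 in CTL, where 0.0227% were called; the CTL test passed without HF number 6 or HF number 7 at 9h (0.0266 and 0.0263) and in the CTL libraries alone (0.0372). The interaction of diet and time, which tests whether these differ, gave Rxra an adjusted p of 0.999 in limma. For diet, Rxra averaged 31.8 ± 6.39 FPKM in HF and 32.7 ± 7.79 FPKM in CTL libraries (SD, n = 6 each), a difference of -0.03 with a 95% interval of -0.25 to 0.18.

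Markers of skeletal muscle, present in a whole eyelid, were lower at 21h than at 9h, as Rxra was. Of 12 such markers, 5 were called lower at 21h than at 9h, where 3.43% of all genes were, and 0 higher, where 2.59% were. These calls were not checked with 1 library left out. The median difference of the markers was -0.69, beside 0.055 (log2 scale) over all genes. Their summed level was 5456 to 6936 FPKM at 9h, 2548 to 4926 FPKM at 15h and 2908 to 4461 FPKM at 21h, so the 21h and 9h libraries did not overlap. From 15h to 21h in HF libraries, 8 of 12 markers rose (median difference 0.16), while Rxra differed by -0.24. In CTL libraries 1 of 12 rose (median -0.23), and Rxra differed by -0.12. At 15h the sum was lower in HF (3356 and 2548 FPKM) than in CTL libraries (4926 and 3873 FPKM). Rxra was higher in HF at 15h, as 19% of genes were without overlap. In the HF library numbered 6 at 9h, where Rxra was 29.5 FPKM, the sum was 5661 FPKM, within the range of the other 9h libraries, while its summed level of meibocyte and sebocyte genes, 8916 FPKM, was the lowest at 9h, where the others had 10370 to 13670 FPKM. Hair follicle markers had a median difference of -0.35 with 0 of 13 positive. Of the 13, 0 were called (smallest adjusted p = 0.0679 in limma), where 6.02% of all genes were. Their summed level overlapped, at 1260 to 2439 FPKM at 21h and 2025 to 2703 FPKM at 9h. None of 26 meibocyte and sebocyte genes was called between these times, beside the same 6.02%, with a median difference of -0.02. The part of muscle, follicle or gland content in the Rxra difference was not tested.

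**Figure D2:**
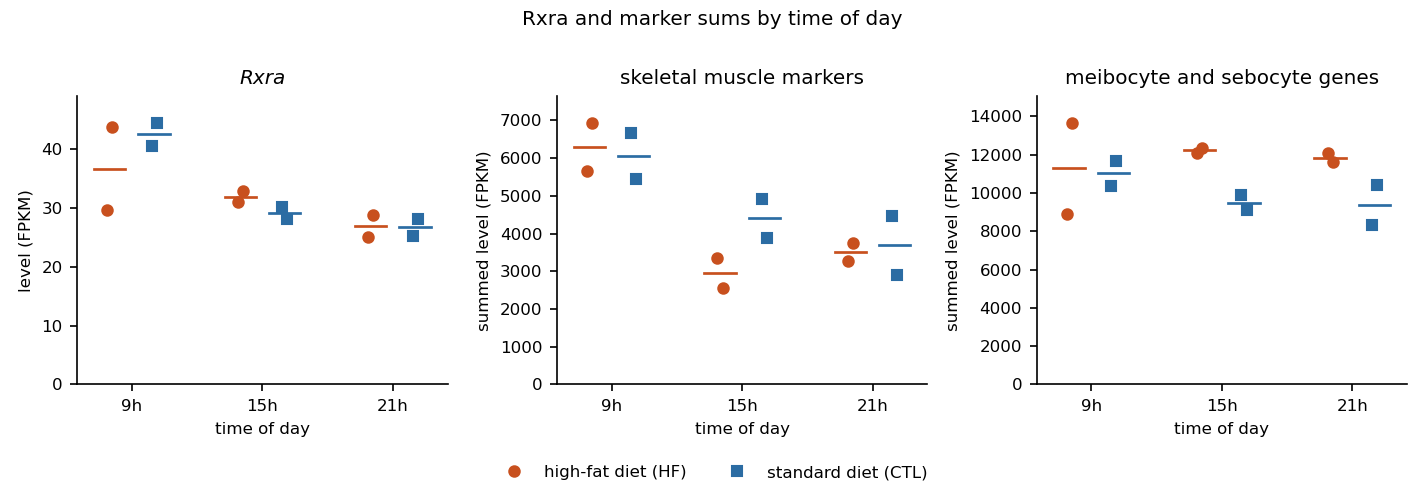
Rxra in FPKM (left), summed FPKM of 12 skeletal muscle markers (middle) and summed FPKM of 26 meibocyte and sebocyte genes (right) by time of day, with every axis from 0; points are libraries, circles HF and squares CTL, and lines are means of 2. Rxra and the muscle sum are both highest at 9h, where the muscle sum runs from 5456 to 6936 FPKM.

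The 2 other retinoid X receptors had lower levels per length than Rxra. Rxrb ranged from 12.6 to 15.0 FPKM over the 12 libraries and Rxrg from 1.34 to 3.56 FPKM. Their differences of 21h minus 9h were -0.03 ± 0.07 for Rxrb and -0.42 ± 0.12 for Rxrg (SE, adjusted p = 0.779 and 0.0728 in limma). Of 13 tested receptors that pair with RXR, or are RXRs themselves, 1 was called between 21h and 9h, a share near the 6.02% of all genes: Thra, the thyroid hormone receptor alpha, averaged 9.61 ± 0.81 FPKM at 21h and 14.5 ± 1.12 FPKM at 9h (SD, n = 4 each) and fell by 0.55 on the log2 scale (adjusted p = 0.0218 in limma). Its call held in 8 of 12 fits with 1 library left out and was lost, at adjusted p of up to 0.0914, without HF number 3 or CTL number 2 at 21h, or either CTL library at 9h. Rarg, the main retinoic acid receptor of skin, differed by -0.19 (adjusted p = 0.131 in limma), and Nr1h2, the liver X receptor beta, by 0.08. The median difference of the list was -0.19, beside 0.055 over all genes. Of 13 coregulators of nuclear receptors, 0 were called, with a median difference of 0.03.

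The genes whose levels ran most like Rxra over the 12 libraries were Hgs and Rnf10 (Pearson r = 0.985 each), Eif4ebp2 (r = 0.984), Psmd2 and Pm20d2 (r = 0.981 each). These values are a description over libraries that share diet, time and tissue make-up. Rnf10 and Eif4ebp2 were themselves called lower at 21h than at 9h, with differences of -0.52 and -0.59.

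Pparg (ENSMUSG00000000440, GRCm38 chromosome 6, 115360951 to 115490399, plus strand) measured 23.7 and 30.1 FPKM in HF and 24.1 and 23.8 FPKM in CTL libraries at 9h. At 15h it measured 25.7 and 31.8 FPKM in HF and 27.8 and 21.8 FPKM in CTL, and at 21h 29.0 and 25.9 FPKM in HF and 22.9 and 25.8 FPKM in CTL. The diets overlapped at 9h and 15h. At 21h both HF libraries were above both CTL libraries, as were 15.6% of genes. The difference of the means was positive at all 3 times for Pparg and for Srd5a1, as it was for 17.8% of genes.

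Averaged over times, Pparg was 27.7 ± 3.10 FPKM in HF and 24.4 ± 2.15 FPKM in CTL libraries (SD, n = 6 each). The difference was 0.18 ± 0.09 (SE, 95% interval -0.03 to 0.38, adjusted p = 0.432 in limma), so it did not pass the test. Time differences were small beside their error, with 0.03 ± 0.11 for 21h minus 9h (SE). Its paralogs had lower levels, 2.87 to 7.68 FPKM for Ppara and 6.17 to 12.2 FPKM for Ppard.

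Of 17 tested targets of PPARG, lipid-droplet and lipid-uptake genes for the most part, 0 were called for diet, where 1.98% of all genes were. A positive difference was found for 14 of the 17. The median difference was 0.18, beside -0.0057 over all genes. The smallest p belonged to Plin4, a lipid-droplet coat protein, at 41.3 ± 6.20 FPKM in HF and 29.5 ± 4.57 FPKM in CTL libraries (SD, n = 6 each), with a difference of 0.47 ± 0.12 (SE, adjusted p = 0.0967 in limma). Lpl, lipoprotein lipase, differed by 0.37 (adjusted p = 0.115 in limma) and Hilpda, an inhibitor of lipolysis, by 0.26 (adjusted p = 0.201 in limma). The most abundant were Cidea, a lipid-droplet protein, at 622 ± 102 FPKM in HF and 535 ± 69.0 FPKM in CTL libraries, and Dgat2, which makes triglyceride, at 438 ± 66.9 FPKM in HF and 390 ± 34.0 FPKM in CTL libraries.

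Of the 26 meibocyte and sebocyte genes, 2 were called higher in HF, where 0.204% of all genes were, and 0 lower, where 1.78% were, and the median difference was 0.23. One of the 2, Soat1, which esterifies cholesterol, averaged 141 ± 24.6 FPKM in HF and 105 ± 11.4 FPKM in CTL libraries (SD, n = 6 each), a difference of 0.42 ± 0.08 (SE, adjusted p = 0.0409 in limma). With 1 library left out in turn, Soat1 was called in 3 of 12 fits, those without HF number 6 at 9h or either HF library at 15h (adjusted p up to 0.150); without the low-value filter Soat1 had an adjusted p of 0.0633, and after rescaling by median of ratios 0.0872. The most abundant were Scd1, a fatty acid desaturase, with a difference of 0.25 (adjusted p = 0.494 in limma), and Elovl4, an elongase of very long chains, with 0.22 (adjusted p = 0.450 in limma). Summed levels of the 26 genes at 15h were 12090 and 12360 FPKM in HF and 9892 and 9093 FPKM in CTL libraries. At 21h they were 12070 and 11620 FPKM in HF and 8333 and 10430 FPKM in CTL libraries. The diets overlapped only at 9h, where the median difference was 0.05, beside 0.34 at 15h and 0.31 at 21h. Among single genes, 19% at 15h and 15.6% at 21h had HF above CTL without overlap. The sum is weighted to the most abundant genes, with means of 4099 FPKM for Scd1 and 1387 FPKM for Elovl4 over the 12 libraries. The summed level was lowest among HF libraries in number 6 at 9h, at 8916 FPKM, and highest in number 7 at 9h, at 13670 FPKM. Rxra, Pparg, Srd5a1 and Mc5r were also lower in number 6 than in number 7, while Prdm1 was higher, and the part of gland content in the diet differences of Pparg and Srd5a1 was not tested. Pparg is also a regulator of adipocytes, whose markers summed to 54.5 to 76.2 FPKM in HF and 45.3 to 73.0 FPKM in CTL libraries. Of these markers, 0 of the 7 tested were called for diet, where 1.98% of all genes were. Their median difference was 0.24 with 5 of 7 positive, and 6 of the 20 listed PPARG targets are also on the adipocyte list. The part of adipocyte content in the differences of Pparg and its targets was not tested.

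The genes most like Pparg over the 12 libraries were Lipg, an endothelial lipase (Pearson r = 0.906), Tmem86a (r = 0.898), Bdh1 (r = 0.892), Pank1, a kinase of coenzyme A synthesis (r = 0.891), and Btd (r = 0.879).

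Srd5a1 (ENSMUSG00000021594, GRCm38 chromosome 13, 69573449 to 69611442, minus strand), steroid 5-alpha-reductase 1, had the largest diet difference of the 5 genes averaged over times and at 21h, though not at 9h or 15h. At 9h it measured 26.6 and 33.7 FPKM in HF and 26.7 and 28.8 FPKM in CTL libraries. At 15h it measured 36.2 and 32.7 FPKM in HF and 32.7 and 29.6 FPKM in CTL, and at 21h 39.9 and 34.8 FPKM in HF and 24.0 and 30.5 FPKM in CTL. The diets overlapped at 9h and 15h, and at 21h both HF libraries were above both CTL libraries, as were 15.6% of genes.

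Averaged over times, Srd5a1 was 34.0 ± 4.39 FPKM in HF and 28.7 ± 3.05 FPKM in CTL libraries (SD, n = 6 each). The difference was 0.23 ± 0.09 (SE, 95% interval 0.04 to 0.42). Its unadjusted p of 0.0244 became 0.270 after adjustment in limma, so it was not called, and 14.1% of all genes had an unadjusted p under 0.05. At 21h alone the difference was 0.45 ± 0.15 (SE, 95% interval 0.11 to 0.78, adjusted p = 0.646 in limma), beside 0.11 at 9h and 0.14 at 15h. It was 0.28 without CTL number 1 at 21h, the lowest of the fits with 1 library left out, and 0.61 without CTL number 2, the highest. The interaction test did not separate these times (adjusted p = 0.999 in limma). At 21h, 0.00756% of genes were called (1 gene), and 711 had an unadjusted p under 0.05.

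**Figure D3:**
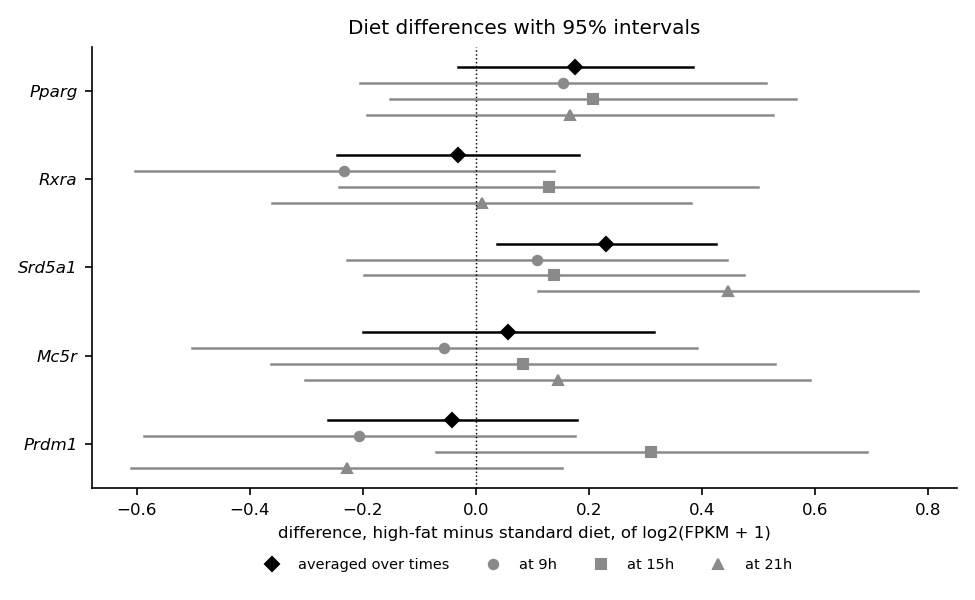
Difference of high-fat minus standard diet in log2(FPKM + 1) (horizontal axis) for each gene; diamonds are the average over 3 times, circles 9h, squares 15h and triangles 21h, and lines are 95% intervals from limma. The intervals of Srd5a1 for the average (0.04 to 0.42) and for 21h (0.11 to 0.78) lie above 0 before adjustment for the number of genes.

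Srd5a1 was the main 5-alpha-reductase RNA per length. Srd5a3, which acts in dolichol synthesis, ranged from 6.58 to 8.79 FPKM, and Srd5a2 had at most 4 reads (0.158 FPKM), with 5 of 12 libraries at 0. Of 16 tested genes of steroid metabolism, 0 were called for diet, where 1.98% of all genes were, and the median difference was 0.10. Hsd17b7, an enzyme of cholesterol synthesis that also converts estrone to estradiol, averaged 71.0 ± 8.69 FPKM in HF and 56.1 ± 9.67 FPKM in CTL libraries (SD, n = 6 each), a difference of 0.34 ± 0.09 (SE, adjusted p = 0.135 in limma). Akr1c14, a 3-alpha-hydroxysteroid dehydrogenase that inactivates dihydrotestosterone, was called higher at 21h than at 9h, as were 2.59% of genes: it averaged 2.43 ± 0.59 FPKM at 21h and 1.37 ± 0.40 FPKM at 9h (SD, n = 4 each), a difference of 0.53 ± 0.11 (SE, adjusted p = 0.0311 in limma). Its call held in 3 of 12 fits with 1 library left out, those without HF number 6 at 9h or either HF library at 15h, and the adjusted p reached 0.119 in the others.

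The glucocorticoid receptor Nr3c1 was the most abundant steroid receptor, at 15.5 ± 1.09 FPKM in HF and 15.0 ± 1.00 FPKM in CTL libraries (SD, n = 6 each). The mineralocorticoid receptor Nr3c2 differed by 0.28 ± 0.09 (SE, adjusted p = 0.202 in limma). Of 7 steroid receptor genes, 3 passed the filter. Of these, 0 were called for diet, where 1.98% of all genes were, or between 21h and 9h, where 6.02% were.

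The genes most like Srd5a1 were Msmo1, an enzyme of cholesterol synthesis (Pearson r = 0.953), Cdadc1 (r = 0.950), Slc5a6, a vitamin transporter (r = 0.933), Tm7sf2, a sterol reductase (r = 0.930), and Hacd2, an enzyme of fatty acid elongation (r = 0.925). None was called for diet, where 1.98% of all genes were.

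Mc5r (ENSMUSG00000007480, GRCm38 chromosome 18, 68337596 to 68342446, plus strand) measured 3.66 and 4.09 FPKM in HF and 4.03 and 4.10 FPKM in CTL libraries at 9h. At 15h it measured 6.17 and 3.51 FPKM in HF and 4.42 and 4.31 FPKM in CTL, and at 21h 4.36 and 4.16 FPKM in HF and 3.24 and 4.34 FPKM in CTL. The diets overlapped at every time, and the 2 HF libraries at 15h were the highest and the second lowest of all 12. Averaged over times, Mc5r was 4.32 ± 0.96 FPKM in HF and 4.07 ± 0.44 FPKM in CTL libraries (SD, n = 6 each), a difference of 0.06 with a 95% interval of -0.20 to 0.32 (adjusted p = 0.868 in limma). At its depth of 188 to 369 reads per library, differences inside that interval were not resolved.

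Mc5r was the melanocortin receptor with the most RNA per length in the eyelid. Mc1r, the receptor of melanocytes, ranged from 0.118 to 0.502 FPKM, while the highest values were 0.392 FPKM for Mc2r, 0.0674 FPKM for Mc3r and 0.0230 FPKM for Mc4r, the last from 1 read in 1 library. Pomc, the precursor of the melanocortin peptides, reached 0.407 FPKM at most. Of 6 tested genes of the melanocortin system, 0 were called for diet, where 1.98% of all genes were, or between 21h and 9h, where 6.02% were. Among them Cpe, a carboxypeptidase that trims peptide hormones, was at 379 ± 26.3 FPKM in HF and 350 ± 34.7 FPKM in CTL libraries (SD, n = 6 each), and Mrap, an accessory protein of melanocortin receptors, at 2.29 ± 0.46 FPKM in HF and 2.09 ± 0.27 FPKM in CTL libraries. The genes most like Mc5r were Naa30 (Pearson r = 0.874), Pot1a (r = 0.864), Lpar2 (r = 0.847), Tmem64 (r = 0.845) and Esco1 (r = 0.841).

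**Figure D4:**
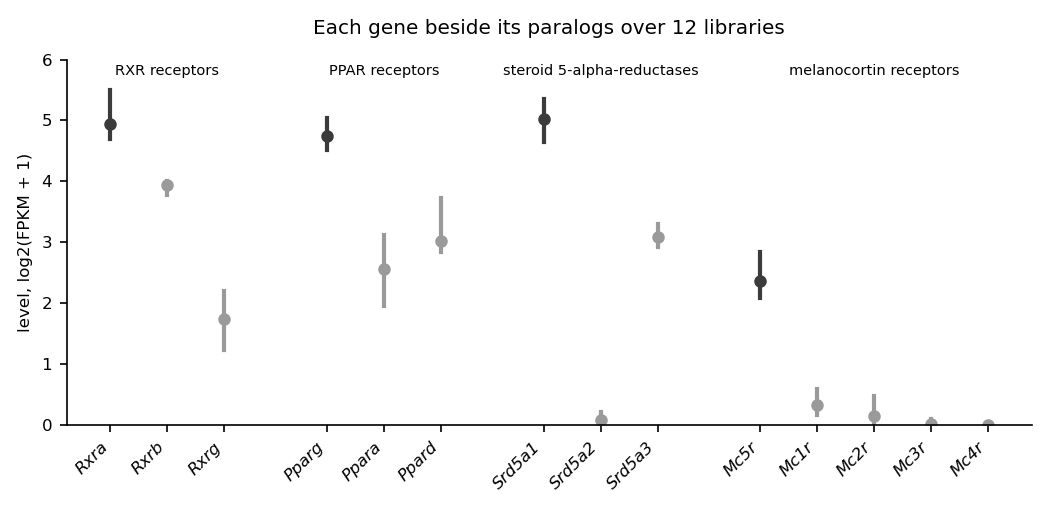
Level of each gene and its paralogs on the log2(FPKM + 1) scale (vertical axis, from 0); lines run from the lowest to the highest of 12 libraries, dots are medians, and dark marks are Rxra, Pparg, Srd5a1 and Mc5r. Each of the 4 has the highest median of its family, and Srd5a2 and Mc2r to Mc4r lie near 0.

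Prdm1 (ENSMUSG00000038151, GRCm38 chromosome 10, 44437177 to 44528501, minus strand) measured 10.1 and 6.77 FPKM in HF and 8.95 and 10.5 FPKM in CTL libraries at 9h. At 15h it measured 9.77 and 11.7 FPKM in HF and 8.84 and 8.03 FPKM in CTL, and at 21h 8.24 and 9.04 FPKM in HF and 9.72 and 10.9 FPKM in CTL. Both HF libraries were above both CTL libraries at 15h and below them at 21h, with no overlap at either time, a pattern shown by 1.46% of genes. At 15h alone 19% of genes, and at 21h alone 22.2%, had the same order without overlap.

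The diet difference of Prdm1 was -0.21 at 9h, 0.31 at 15h and -0.23 at 21h, each with an SE of 0.17. The 15h value was 0.19 without HF number 6 at 15h and 0.43 without HF number 2 at 15h, the extremes with 1 library left out. None passed in limma (adjusted p = 0.833, 0.519 and 1.00). No gene at all was called at 9h, where 955 had an unadjusted p under 0.05, and 0.0605% were called at 15h. The interaction of diet and time gave Prdm1 an unadjusted p of 0.0853 and an adjusted p of 0.999 in limma, which called 0 genes there, with 405 under an unadjusted p of 0.05. Averaged over times it was 9.27 ± 1.68 FPKM in HF and 9.49 ± 1.08 FPKM in CTL libraries (SD, n = 6 each), a difference of -0.04 with a 95% interval of -0.26 to 0.18.

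PRDM1 is also a regulator of plasma cells and T cells. T cell markers summed to 11.8 to 18.4 FPKM in HF and 24.2 to 46.2 FPKM in CTL libraries, and 6 of 11 tested were called lower in HF, where 1.78% of all genes were. B and plasma cell markers summed to 21.4 to 164 FPKM in HF and 25.5 to 115 FPKM in CTL libraries, with 1 of 6 called lower against the same 1.78%. Macrophage markers summed to 142.4 to 374.5 FPKM in HF and 302.7 to 487.1 FPKM in CTL libraries, with 1 of 12 called lower. The calls of these immune markers were not checked with 1 library left out, and the replicate block left 0 genes called for diet averaged over times. Cornification markers of keratinocytes summed to 1148 to 1771 FPKM in HF and 1094 to 2583 FPKM in CTL libraries. Of these, 0 of 14 were called, where 1.98% of all genes were. At 15h their sums were 1771 and 1698 FPKM in HF and 1533 and 1094 FPKM in CTL libraries. At 21h they were 1471 and 1459 FPKM in HF and 2583 and 1486 FPKM in CTL libraries. Neither time had overlap, and the order of the diets was that of Prdm1, though at 21h the nearest sums were 1471 and 1486 FPKM. Among single genes, 19% had HF above CTL without overlap at 15h, and 22.2% had HF below CTL at 21h. At 9h the sums were 1148 and 1395 FPKM in HF and 1838 and 1718 FPKM in CTL libraries. These did not overlap, whereas the Prdm1 levels of the diets did at 9h. The diet difference was positive for 4 of 14 at 9h (median -0.17), 14 at 15h (median 0.47) and 2 at 21h (median -0.86). None of these markers was at 0 in all libraries. The part of these cells in the level of Prdm1 was not tested.

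Of 16 tested PRDM genes and partners of BLIMP1, 0 were called for diet, where 1.98% of all genes were, with a median difference of 0.02. Xbp1, a secretory regulator, averaged 66.0 ± 2.69 FPKM in HF and 74.0 ± 7.61 FPKM in CTL libraries (SD, n = 6 each), a difference of -0.16 (adjusted p = 0.381 in limma). Irf4 differed by -0.19 (adjusted p = 0.542 in limma), and Ehmt2, a histone methyltransferase recruited by BLIMP1, by 0.06 (adjusted p = 0.720 in limma). Prdm9, a meiotic methyltransferase, was the 1 of the 16 called between 21h and 9h, a share near the 6.02% of all genes, with 2.49 ± 0.15 FPKM at 21h and 1.38 ± 0.50 FPKM at 9h (SD, n = 4 each) and an adjusted p of 0.0445 in limma. The call held in 1 of 12 fits with 1 library left out, that without HF number 6 at 9h, with adjusted p of up to 0.145 in the others; without the low-value filter it was 0.0696 and after rescaling to an equal sum 0.0566. The genes most like Prdm1 were Sox7 (Pearson r = 0.921), Spty2d1 (r = 0.883), Kat6a (r = 0.852), Spata13 (r = 0.847) and Sidt2 (r = 0.843).

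Beside these 5, 30 stem cell and lineage regulators of sebaceous glands were tested. Of the 30, 0 were called for diet, where 1.98% of all genes were, with a median difference of 0.04. Myc, which drives sebocyte progenitors, averaged 33.6 ± 6.60 FPKM in HF and 23.8 ± 1.78 FPKM in CTL libraries (SD, n = 6 each), a difference of 0.46 ± 0.12 (SE, adjusted p = 0.113 in limma). Eda, the ectodysplasin ligand of gland development, differed by 0.39 (adjusted p = 0.125 in limma) and Gata6, a factor of the sebaceous duct, by 0.21 (adjusted p = 0.256 in limma). Cebpa, an adipocyte and sebocyte factor, was abundant at 119 ± 13.5 FPKM in HF and 105 ± 10.4 FPKM in CTL libraries. Between 21h and 9h, 1 of the 30 was called, no larger a share than the 6.02% of all genes: Tcf7l1, a repressor of Wnt targets in follicle stem cells, averaged 3.24 ± 0.30 FPKM at 21h and 5.24 ± 0.79 FPKM at 9h (SD, n = 4 each) and fell by 0.55 on the log2 scale (adjusted p = 0.0271 in limma). Its call held in 3 of 12 fits with 1 library left out, those without HF number 6 at 9h or either HF library at 15h, and the adjusted p reached 0.111 in the others.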

How the data were processed

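The authors deposited 1 table of FPKM values for 12 libraries. Per the submitters' processing notes, the build was mm9 and the tools included DESeq 1.30.0, HTSeq 0.9.1 and HISAT2 2.0.5. How FPKM was computed, the use of strand and the annotation are not given in the sources read. With merged exon lengths of GENCODE M21 on GRCm38, which holds 21817 of the 21936 gene IDs, 98.1% of nonzero values were whole reads within 0.02 reads, which gave the depth. Coordinates are those of GRCm38 and promoter sequences those of RefSeq on GRCm38.p6; none were converted.

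Genes above 1 FPKM in at least 2 libraries were fitted with limma 3.58.1 in R 4.3.3, with a mean-dependent prior, on log2(FPKM + 1), with 1 mean for each of 6 groups and 6 residual degrees of freedom. Fold changes on this scale are understated for low genes. A pairing of same-numbered libraries was neither shown nor excluded. The replicate block is therefore given as an alternative, as are another pseudocount, no filter, 2 rescalings, limma-voom on the recovered reads and subsets of libraries.

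The 5 genes and the companion lists were chosen with earlier results of these data known. Named companions were called genes (up to 4 per list), the 3 with the smallest p for diet and the 2 of highest mean. Genes most like a member were the 5 of highest Pearson r among regularly named genes with a mean of at least 1 FPKM. Paralogs and Pomc were chosen after their values were seen. A few companions the rule covers are not reported here.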

Additional observations from a re-analysis of the deposited data

Results flagged for a closer look

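In 25 groups of 4 or 6 libraries, a single library stood far from the others in 4 cases. Chance alone gives about 1 in 20 groups of like libraries. These groups share libraries and pool the diets or the times, so the 4 cases cannot be weighed against that rate. Mc5r was at 6.17 FPKM in HF number 2 at 15h, the highest of the 6 HF libraries, and at 3.24 FPKM in CTL number 1 at 21h, the lowest of the 6 CTL libraries. Among the 4 libraries at 9h, Mc5r was lowest in HF number 6, at 3.66 FPKM, and Pparg was highest in HF number 7, at 30.1 FPKM. The remaining 3 libraries at 9h had 23.7 to 24.1 FPKM of Pparg.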

How the results depend on the processing

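The labels' numbers were also fitted as a replicate block, which left 2 residual degrees of freedom. Deviations of same-numbered libraries had r of -0.502 to 0.289. In a group of 2 libraries the deviations mirror each other, so these r values cannot exclude a pairing. With the block, 0 genes were called for diet averaged, at 15h or at 21h, for time over both diets or in CTL, or for 21h minus 9h, and 1 for diet at 9h. The block gave Rxra -0.3207 for 21h minus 9h (adjusted p = 0.230). It also ended the calls of Soat1, Thra, Akr1c14, Tcf7l1 and Prdm9 (adjusted p = 0.527, 0.0906, 0.280, 0.173 and 0.219 in limma). It turned the diet difference to -0.082 for Pparg and 0.2427 for Mc5r at 9h and to -0.1293 for Rxra at 21h, and 21h minus 15h to 0.0035 for Pparg, 0.0421 for Srd5a1 and 0.0268 for Prdm1. Without the low-value filter, 1 gene was called for diet at 15h, 0 at 21h, 7 for time over both diets, 1 for time in CTL and 429 for 21h minus 9h, where Rxra kept -0.5305 at an adjusted p of 0.0552. A pseudocount of 0.1 gave 2 calls at 15h, 0 at 21h and 126 for time over both diets. Rescaling to an equal sum per library gave 2 at 15h and 0 at 21h, median of ratios 2 at 21h, and limma-voom 0 at 15h and at 21h. Median of ratios turned Pparg to -0.0352 and Mc5r to -0.0441 for 21h minus 9h and Pparg to -0.0034 for 15h minus 9h, and the equal sum turned Mc5r to -0.0083. Fits of 1 time or diet gave 55 diet calls at 9h, 0 at 15h, 0 at 21h and 751 for time in CTL, where Rxra passed (adjusted p = 0.0372). The cause was not tested. Leaving out each library in turn gave 143 to 293 calls for diet averaged, 0 to 155 for diet at 9h, 0 to 72 for diet at 15h, 0 to 27 for diet at 21h, 1 to 2509 for time over both diets, 0 to 63 for time in HF, 0 to 839 for time in CTL and 4 to 3375 for 21h minus 9h, with 0 for the interaction each time. The counts were highest for time, 2509 and 3375, without HF number 6 at 9h, and lowest, 1 and 4, without HF number 3 at 21h and CTL number 3 at 9h. In these fits values for several genes crossed 0. The averaged diet difference ran over -0.1227 to 0.0606 for Rxra, -0.0538 to 0.1694 for Mc5r and -0.126 to 0.0439 for Prdm1. At 9h it ran over -0.0144 to 0.3226 for Pparg, -0.5074 to 0.0425 for Rxra, -0.0563 to 0.2727 for Srd5a1, -0.1198 to 0.009 for Mc5r and -0.4612 to 0.0486 for Prdm1. At 15h it ran over -0.2509 to 0.4186 for Mc5r. At 21h it ran over -0.0864 to 0.1073 for Rxra and -0.0226 to 0.3126 for Mc5r. The difference of 21h minus 9h ran over -0.0542 to 0.1144 for Pparg, -0.0732 to 0.0944 for Mc5r and -0.0615 to 0.1934 for Prdm1. That of 15h minus 9h ran over -0.0175 to 0.1518 for Pparg, -0.0142 to 0.3205 for Mc5r and -0.0511 to 0.2037 for Prdm1. That of 21h minus 15h ran over -0.1217 to 0.0476 for Pparg, -0.1255 to 0.0421 for Srd5a1, -0.3099 to 0.0248 for Mc5r and -0.07 to 0.0493 for Prdm1. Rxra for 21h minus 9h ran over -0.668 to -0.393.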
